A study of Mus musculus with 12 samples.

Results

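The nuclear genome encodes most of the protein subunits of the mitochondrial respiratory chain and of its ATP synthase. They were taken here as the protein-coding genes whose symbols start with Ndufa, Ndufb, Ndufc, Ndufs or Ndufv (but not Ndufaf), Uqcr, Cox4i, Cox5, Cox6, Cox7, Cox8 or Atp5, together with Sdha, Sdhb, Sdhc, Sdhd, Cyc1 and Cycs. Of 53431 genes in the count table, 88 met this rule: 38 of complex I, 4 of complex II, 9 of complex III, the gene of cytochrome c, 18 of complex IV and 18 of complex V. Of these 88, 85 passed the low-count filter and were tested. Cox7b2 had no count in any library, and Cox8c and a second annotated Atp5o gene stayed under 1 CPM (counts divided by the scaled library size and multiplied by 1000000) in every library.

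Electrons from NADH enter the chain at complex I, and electrons from succinate enter at complex II. Ubiquinone carries them to complex III, cytochrome c carries them on to complex IV, where oxygen is reduced, and complexes I, III and IV pump protons that drive ATP synthesis in complex V. Part of each of complexes I, III, IV and V is encoded in mitochondrial DNA, while every subunit of complex II is nuclear encoded. White adipocytes hold fewer mitochondria than brown adipocytes and use them for fatty acid oxidation and for the synthesis of triglyceride and adipokines.

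RNA of flash-frozen adipose tissue was sequenced from mice of mixed C57BL/6 x 129/SvJ background at 6 months of age, with 12 libraries in 3 groups of 4. The first group is labelled WT and had no treatment, the second is labelled Bbs2-/- and had no treatment, and the third is labelled Bbs2-/- and had the glucosylceramide synthase inhibitor Genz-667161 in its feed (0.033% by weight) between the ages of 2 and 6 months. A WT group on the inhibitor is not analysed here. The labels name neither the fat depot, nor the sex, nor the kind of Bbs2 allele, and they do not say that each library is 1 animal. The p-values then describe only how far these libraries spread, which may be technical. The BBSome, of which the Bbs2 protein is a part, moves membrane proteins into and out of cilia. Mutations of its genes underlie Bardet-Biedl syndrome, a ciliopathy with obesity. Bbs2 itself was at 12.1 to 12.7 CPM in the libraries labelled WT, at 53.7 to 70.6 CPM in those labelled Bbs2-/- without inhibitor and at 53.7 to 65.4 CPM in those with it. The sources used here do not say which part of the gene the allele removes. A count over the whole gene therefore does not check the genotype, and groups are named throughout as the labels name them.

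Total counts ran from 16317865 to 20224200 per library. Markers of the labelled tissue were abundant, with 10 adipocyte genes at a summed 38790 ± 8886 CPM (SD, n = 4) in the WT libraries, 16320 ± 1427 in the untreated and 33490 ± 6592 in the treated Bbs2-/- libraries. The 10 macrophage genes summed to 1439 ± 793 CPM (710 to 2569), 8039 ± 1164 CPM (6379 to 9070) and 1182 ± 510 CPM (702 to 1832) in the same order. No marker of either list was at 0 in all libraries. WT 1 stood apart from the other WT libraries, with 2569 CPM of macrophage markers and 1093 CPM of 6 epididymis markers, which were at or below 2.38 CPM in every other library. It was also the lowest WT library for 76 of the 85 tested members. Among the treated libraries, treated 4 was the highest for 65 of the 85 and had the highest adipocyte sum of its group, 43060 CPM. Foxj1, a factor of ciliated cells, had 48 counts in WT 1, 164 in WT 4, 154 in treated 1 and 140 in treated 3, while no other library had more than 2. Testis germ cell markers summed to 1.69, 7.09, 1.97 and 4.76 CPM in these 4 libraries and to at most 0.066 CPM in every other library.

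Promoters were matched for 68 of the 88 members in the RefSeq table (GRCm38.p6), as 300-base windows from 250 bases before to 50 after an annotated start. The upstream 120 bases of 7 are shown because results below turn on these genes: Ndufv1 had the smallest p of the members in both tests of the untreated group, Uqcr11 and Atp5k were among the genes with larger changes, Cycs is the single electron carrier of the set, and Atp5g1, Atp5g2 and Atp5g3 are 3 genes for 1 mature protein. Capitals mark a match to a motif, all are written 5′ to 3′ on the strand of the gene, and the last base is the one before the start.
Ndufv1 (chr19:4012756-4012875, minus strand): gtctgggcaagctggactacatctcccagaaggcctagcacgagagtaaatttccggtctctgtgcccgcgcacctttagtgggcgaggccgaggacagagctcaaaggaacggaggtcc
Uqcr11 (chr10:80406822-80406941, minus strand): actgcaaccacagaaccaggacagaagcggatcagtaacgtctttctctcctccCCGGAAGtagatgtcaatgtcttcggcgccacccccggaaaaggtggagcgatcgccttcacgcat
Cycs (chr6:50566570-50566689, minus strand): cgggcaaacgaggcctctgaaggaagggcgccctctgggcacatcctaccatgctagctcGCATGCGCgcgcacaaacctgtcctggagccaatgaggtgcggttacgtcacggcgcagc
Atp5k (chr5:108434400-108434519, minus strand): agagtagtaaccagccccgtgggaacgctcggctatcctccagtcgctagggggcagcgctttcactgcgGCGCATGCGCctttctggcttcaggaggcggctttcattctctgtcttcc
Atp5g1 (chr11:96075632-96075751, minus strand): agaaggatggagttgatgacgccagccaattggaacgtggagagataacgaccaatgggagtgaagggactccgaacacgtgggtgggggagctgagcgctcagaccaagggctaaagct
Atp5g2 (chr15:102671048-102671167, minus strand): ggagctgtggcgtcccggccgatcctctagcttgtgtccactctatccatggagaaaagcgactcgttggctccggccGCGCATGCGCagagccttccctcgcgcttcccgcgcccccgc
Atp5g3 (chr2:73911327-73911446, minus strand): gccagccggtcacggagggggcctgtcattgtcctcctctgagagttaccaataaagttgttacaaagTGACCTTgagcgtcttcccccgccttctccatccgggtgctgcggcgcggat

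The NRF1 motif GCGCATGC was found on either strand in 15.1% of 73 member promoters and in 2.71% of all 32851 promoters of the table. Its inner part GCATGC was in 19.2% and 7.93%, which includes the matches of the longer form. The GABPA motif CCGGAAG was in 21.9% of member promoters and 8.86% of all, the ERR motif AAGGTCA in 8 of 73 and 4.72%, and the YY1 motif AAGATGGCG in 9.59% and 1.4%. Of the 3 c-subunit genes, Atp5g2 holds a symmetric NRF1 match 42 bases before the start, Atp5g3 holds an ERR motif on the opposite strand 52 bases before it, and the Atp5g1 window holds no match. Cycs has its NRF1 match 60 bases before the start on the opposite strand and Atp5k has a symmetric one 50 bases before it. Atp5k also has GABPA and ERR matches outside the bases shown. Uqcr11 has a GABPA match 66 bases before the start and its NRF1 match outside the bases shown. These letter matches describe the sequence and were not tested for binding.

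In the WT libraries the members spanned a wide range of expression per length. On the deposited log2 FPKM scale, the median of the 85 was 7.21, from 0.36 for Cox6a2 to 9.63 for Atp5b, the catalytic beta subunit of ATP synthase. Complex III had the highest median of the complexes, 8.03, followed by complex V at 7.76, complex IV at 7.54, complex II at 7.07 and complex I at 6.82, and Cycs stood at 5.76. The highest of complexes I, III and IV were Ndufa4 (9.04), Uqcrh (8.63) and Cox4i1 (9.42), and the lowest of complex I was Ndufa4l2 (3.94). These levels carry no test.

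**Figure D1:**
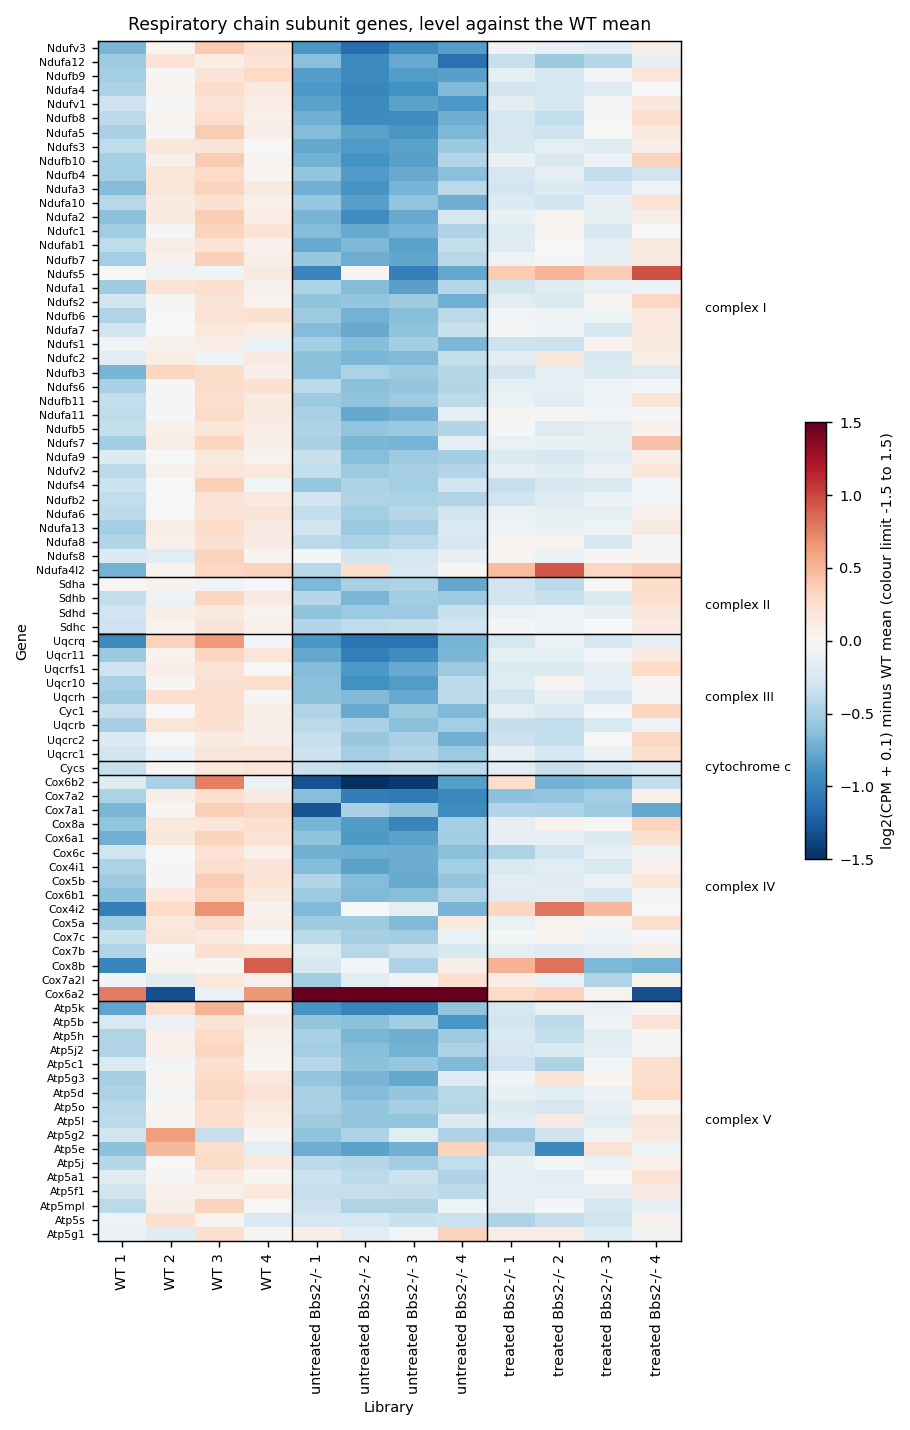
Level of each of the 85 tested members (vertical axis, grouped by complex) in the 12 libraries (horizontal axis), as log2(CPM + 0.1) minus the mean of the 4 WT libraries, with colours limited at -1.5 and 1.5. The untreated columns are blue for nearly all genes, WT 1 is blue for most genes while the other WT libraries are mostly white or pale red, and Cox6a2 is the red row in the untreated libraries.

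Untreated Bbs2-/- libraries had less RNA of nearly the whole chain than WT libraries. Of 85 tested members, 71 fell (83.5%), against 19.7% of all 15968 genes tested, and 1 rose, Cox6a2, against 19.6% of all genes (edgeR quasi-likelihood test, Benjamini-Hochberg adjusted p below 0.05). The median log2 fold change of the members was -0.58, beside -0.02 over all genes, and 82 of 85 lay within 1 log2 unit of 0. Their summed level was 13100 ± 2219 CPM (SD, n = 4) in WT and 8670 ± 365 CPM in the untreated libraries, a ratio of 0.662. As a share of unscaled counts they held 1.23 ± 0.18% in WT and 0.931 ± 0.035% in untreated libraries, a ratio of 0.756. By DESeq2, 73 members passed, and by limma on log2 FPKM 76 did.

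The groups did not overlap for 37 members that were lower in untreated libraries (43.5%, beside 17.2% of all genes). Without WT 1, the lowest WT library for most members, 75 members fell and the median was -0.68. Without WT 2 and WT 3, 20 fell and the median was -0.425, and that fit keeps only WT 1 and WT 4. Summed adipocyte markers were lower and summed macrophage markers higher in the untreated libraries, with 9 of 10 adipocyte markers falling and 10 of 10 macrophage markers rising. Fibroblast markers rose in 4 of 6 genes, with sums of 1949 to 3652 CPM in WT and 4253 to 4969 CPM in untreated libraries, B cell markers rose in 5 of 5, T cell markers in 2 of 6, 2 of 5 tested brown or beige adipocyte markers fell, and of 6 smooth muscle and pericyte markers 3 fell and 2 rose. Of all genes, 19.7% fell and 19.6% rose, and these lists are short. T cell markers summed to only 2.5 to 4.98 CPM in WT and 7.27 to 13.98 CPM in untreated libraries, and B cell markers to 2.29 to 4.87 and 5.57 to 26.4 CPM. The part of these marker lists in the results was not tested. In bulk tissue, fewer cells of a type and less RNA per cell cannot be told apart. Per unit of the adipocyte marker sum, the members stood at 0.343 ± 0.0393 in WT and 0.534 ± 0.0427 in untreated libraries.

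**Figure D2:**
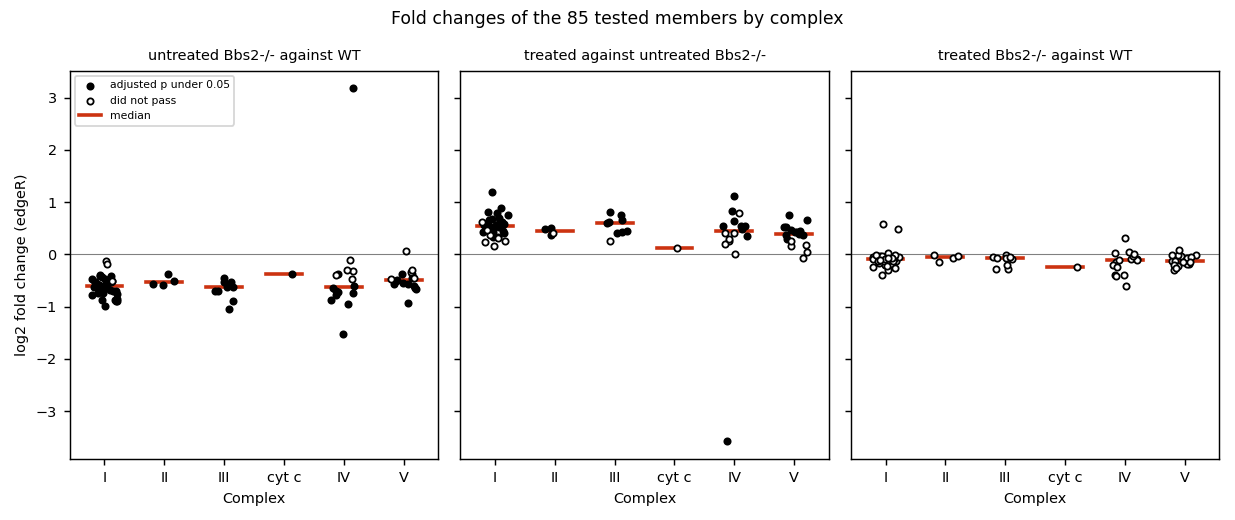
Fitted log2 fold change (vertical axis) of each of the 85 tested members by complex (horizontal axis) in the 3 comparisons. Filled points passed the adjusted threshold of 0.05, open points did not, and red lines are medians. The medians lie below 0 in the first panel, above 0 in the second and close to 0 in the third, where no point is filled.

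Complex I fell in 35 of its 38 genes, with a median of -0.60. Its 29 accessory subunits, which surround the catalytic core, all fell, and 5 of the 7 core subunits did. Ndufv1, the core subunit that binds NADH (ENSMUSG00000037916.13, chr19:4007384-4012806, mm10, minus strand), was at 115, 142, 166 and 154 CPM in the WT libraries, at 82.0, 73.6, 82.1 and 78.8 CPM in the untreated and at 128, 119.5, 141 and 161 CPM in the treated Bbs2-/- libraries. No untreated library reached the lowest WT library, and the log2 difference was -0.87 (SE 0.12, adjusted p = 0.000308). Ndufs3, another core subunit, was at 87.1, 128, 130.0 and 114 CPM in WT and at 66.6, 62.9, 65.1 and 77.1 CPM in untreated libraries, with a log2 difference of -0.76 (SE 0.13, adjusted p = 0.000989) and no overlap. The core subunits Ndufs7 and Ndufs8, which carry iron-sulfur clusters, did not pass, at -0.52 (adjusted p = 0.0533) and -0.18 (adjusted p = 0.229). For Ndufs7 the call appeared in 8 of the alternatives, among them the DESeq2 fit and the fits without WT 1, untreated 4 or treated 4.

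Among the accessory subunits, Ndufv3 and Ndufb9 had large differences. Ndufv3 was at 89.8, 148, 189 and 173 CPM in WT and at 79.01, 65.3, 75.4 and 81.5 CPM in untreated libraries, a log2 difference of -0.99 (SE 0.18, adjusted p = 0.00151). Ndufb9 was at 121, 174, 196 and 212 CPM in WT and at 97.2, 88.4, 96.5 and 98.1 CPM in untreated libraries, a log2 difference of -0.89 (SE 0.15, adjusted p = 0.00107), with counts that were fractional in all libraries, as happens when reads are divided between genes. Ndufs5, a small subunit at the membrane arm, split the untreated group. It was at 53.5, 50.9, 51.2 and 58.5 CPM in WT and at 26.8, 55.04, 26.2 and 31.2 CPM in untreated libraries. Untreated 2 lay within the WT range and the other 3 untreated libraries lay below all WT libraries. Its difference of -0.62 (SE 0.22, adjusted p = 0.0418) lost its call when any single WT library, any untreated library other than 2, or treated 2 or 3 was left out, with log2 values from -0.642 to -0.475. Its counts were also fractional in 83.3% of libraries.

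Ndufa4 was first described as a complex I subunit and is now placed with complex IV, and its relative Ndufa4l2 is known as a gene induced by low oxygen. Ndufa4 was at 201, 288, 338 and 305 CPM in WT and at 153, 141, 148 and 175 CPM in untreated libraries, a log2 difference of -0.87 (SE 0.14, adjusted p = 0.000785) with no overlap. Ndufa4l2 was at 7.35, 12.5, 14.99 and 15.4 CPM in WT and at 9.02, 14.2, 10.3 and 12.2 CPM in untreated libraries, with a difference of -0.13 (adjusted p = 0.685), and the groups overlapped. Counting Ndufa4 in complex IV gives 34 of 37 genes lower in complex I and 11 of 17 lower in complex IV.

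All 4 genes of complex II, the succinate dehydrogenase of the citric acid cycle, fell, with a median of -0.54. Sdha, the flavoprotein that oxidizes succinate, was at 396, 406, 376 and 387 CPM in the WT libraries, at 246, 279, 284 and 230.0 CPM in the untreated and at 320.1, 299, 391 and 472 CPM in the treated Bbs2-/- libraries. The untreated values all lay below the WT values, with a log2 difference of -0.59 (SE 0.14, adjusted p = 0.00509). Sdhd, a membrane anchor, was at 121, 158, 161 and 152 CPM in WT and at 97.1, 101, 101 and 117 CPM in untreated libraries, a log2 difference of -0.51 (SE 0.11, adjusted p = 0.00343) without overlap. Sdhb, the iron-sulfur subunit, differed by -0.56 (SE 0.16, adjusted p = 0.0154) and Sdhc, the other anchor, by -0.38 (SE 0.10, adjusted p = 0.011). The Sdhb call was lost without WT 3 (-0.45) or without untreated 2 (-0.49).

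Complex III fell in 9 of 9 genes, with a median of -0.63. Uqcr11, a small subunit, was at 99.9, 152, 184 and 167 CPM in the WT libraries, at 86.3, 71.98, 77.3 and 91.5 CPM in the untreated and at 134, 133, 143 and 162 CPM in the treated Bbs2-/- libraries. The groups did not overlap, and the log2 difference was -0.88 (SE 0.16, adjusted p = 0.00142). Uqcrfs1 is the Rieske iron-sulfur protein and Cyc1 is cytochrome c1, the subunit that hands electrons to cytochrome c. Uqcrfs1 was at 116, 154, 168 and 143 CPM in WT and at 91.95, 79.4, 84.95 and 98.9 CPM in untreated libraries, a log2 difference of -0.71 (SE 0.14, adjusted p = 0.0022), and Cyc1 differed by -0.62 (SE 0.14, adjusted p = 0.0058), both without overlap. Uqcr10, another small subunit, differed by -0.71 (SE 0.16, adjusted p = 0.00443). Uqcrq, a ubiquinone-binding subunit, had the largest fitted difference of the complex, -1.05 (SE 0.26, adjusted p = 0.00719). Its WT values spread from 83.9 CPM in WT 1 to 251 CPM in WT 3, and WT 1 lay within the untreated range of 74.9 to 99.8 CPM.

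Cycs, the gene of somatic cytochrome c, which also takes part in apoptosis when released from mitochondria, fell by a smaller fitted amount than the median of any complex, a difference that was not tested. It was at 118, 151, 165 and 169.9 CPM in the WT libraries, at 118, 115, 118 and 114 CPM in the untreated and at 133, 118, 126 and 130.0 CPM in the treated Bbs2-/- libraries. WT 1 lay within the narrow untreated range, the log2 difference was -0.38 (SE 0.11, adjusted p = 0.0147), and without untreated 2 the call was lost at -0.34. Its counts were fractional in all libraries, so its level is uncertain where copies of the gene share reads.

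Complex IV fell in 10 of 16 tested genes and rose in 1, with a median of -0.625 (from -1.53 to 3.18). Of its 10 subunits found in most tissues, 8 fell. Cox6c was at 154, 187, 219 and 199 CPM in WT and at 114, 113, 112 and 122 CPM in untreated libraries, a log2 difference of -0.72 (SE 0.12, adjusted p = 0.000773) without overlap. Cox7a2 was at 100.3, 149, 167 and 153 CPM in WT and at 89.4, 67.8, 67.2 and 71.5 CPM in untreated libraries, a difference of -0.94 (SE 0.19, adjusted p = 0.0022) without overlap, and Cox4i1 was at 333, 466, 553 and 525 CPM in WT and at 292, 263, 276 and 324 CPM in untreated libraries, a difference of -0.70 (SE 0.15, adjusted p = 0.00327) without overlap. Cox8a, Cox6a1 and Cox6b1 also fell, by 0.79, 0.74 and 0.61 on the log2 scale, and in each case WT 1 lay within the untreated range. Cox5a did not pass at -0.39 (adjusted p = 0.144). Its untreated values were 61.4, 61.3, 56.2 and 99.5 CPM, and the call appeared without untreated 4 (-0.58) or without WT 1 (-0.53). Cox7a2l, a factor that joins complexes III and IV into supercomplexes, did not pass at -0.10 (adjusted p = 0.652).

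The tissue-restricted isoforms of complex IV went different ways. Cox6b2, known from testis, fell by 1.53 on the log2 scale at a low level: it was at 1.69, 1.35, 3.32 and 1.8 CPM in WT and at 0.722, 0.395, 0.649 and 1.04 CPM in untreated libraries. Cox7a1, an isoform of heart, skeletal muscle and brown fat, was at 3.43, 5.68, 7.17 and 6.98 CPM in WT and at 2.22, 3.95, 3.64 and 2.88 CPM in untreated libraries, a difference of -0.87 (SE 0.26, adjusted p = 0.018). That call was lost when WT 3, WT 4, untreated 1 or untreated 4 was left out. Cox8b, of the same tissues, and Cox4i2, known from lung, did not pass at -0.30 (adjusted p = 0.601) and -0.47 (adjusted p = 0.279), though Cox4i2 passed without WT 1.

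Cox6a2, the heart and skeletal muscle isoform of Cox6a, was the only tested member that passed in the higher direction (ENSMUSG00000030785.8, chr7:128205435-128206387, mm10, minus strand). Its counts were 6, 0, 2 and 5 in the WT libraries, 21, 36, 37 and 53 in the untreated and 4, 4, 3 and 0 in the treated libraries. All 4 untreated libraries lay above all others, which held for 19.5% of all genes against WT and, in reverse, for 20.7% in treated against untreated libraries. The log2 differences were 3.18 (SE 0.71, adjusted p = 0.00435) against WT and -3.57 (SE 0.73, adjusted p = 0.00263) for treated against untreated. The call was kept in every alternative run, including each fit without 1 library. Cox6a2 lies inside Itgad, an integrin gene of macrophages on the opposite strand (chr7:128154376-128223816). Itgad had 283, 36, 7 and 38 counts in WT, 966, 568, 604 and 744 in untreated and 80, 41, 24 and 5 in treated libraries. Whether the counting used strand is not stated in those sources, so reads of the 2 genes cannot be told apart. Skeletal muscle markers summed to 43.9 ± 23.7 CPM in WT, 20.6 ± 7.69 in untreated and 17.5 ± 2.56 in treated libraries. The sum hides single genes. Of 5 tested muscle markers, 1 fell and 1 rose in untreated against WT libraries, where 19.7% and 19.6% of all genes did. In treated against untreated libraries 1 fell and 0 rose, where 18.8% and 18.5% of all genes did.

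Complex V fell in 12 of 17 tested genes, with a median of -0.49. Of the F1 head 4 of 5 genes fell, and of the peripheral stalk 4 of 4. Atp5b was at 1172, 1295, 1566 and 1491 CPM in WT and at 909.6, 896, 954 and 749 CPM in untreated libraries, a log2 difference of -0.65 (SE 0.15, adjusted p = 0.00495) with no overlap. Atp5h, a stalk subunit, and Atp5j2 and Atp5k, small subunits in the membrane, differed by -0.64 (adjusted p = 0.00445), -0.60 (adjusted p = 0.00492) and -0.94 (adjusted p = 0.00529). Atp5k was at 61.7, 127, 152 and 110.1 CPM in WT and at 57.9, 53.3, 53.7 and 70.9 CPM in untreated libraries, and WT 1 overlapped the untreated range. Atp5e, the epsilon subunit of the head, did not pass at -0.45 (adjusted p = 0.299), with untreated values of 38.97, 37.35, 39.38 and 81.72 CPM.

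The c-ring, the rotor that proton flow turns, is made from identical mature proteins encoded by Atp5g1, Atp5g2 and Atp5g3, which differ in their import sequences. Atp5g3, the most expressed per length in WT (8.84 log2 FPKM, beside 6.13 for Atp5g1 and 4.33 for Atp5g2), was at 209, 304, 360.1 and 329.5 CPM in WT and at 196, 182, 173 and 257 CPM in untreated libraries, a difference of -0.57 (SE 0.17, adjusted p = 0.0181). That call was lost without WT 3, untreated 2 or untreated 3. Atp5g1 was at 44.4, 41.5, 55.8 and 47.9 CPM in the WT libraries, at 50.6, 41.8, 45.7 and 59.8 CPM in the untreated and at 50.97, 51.1, 41.4 and 45.4 CPM in the treated Bbs2-/- libraries. Its groups overlapped throughout, and its differences were 0.06 (adjusted p = 0.734), -0.07 (adjusted p = 0.713) and -0.006 (adjusted p = 0.993) in the 3 comparisons, with signs that turned under several alternatives. Atp5g2 did not pass at -0.47 (adjusted p = 0.115). Counts of Atp5g1 and Atp5g2 were fractional in most libraries, so their levels are uncertain where copies share reads.

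Treated Bbs2-/- libraries had more RNA of the chain than untreated ones. Of 85 tested members, 61 rose (71.8%), against 18.5% of all genes tested, and 1 fell, Cox6a2, against 18.8%. The median log2 fold change was 0.48 beside 0.03 over all genes. This comparison uses the same untreated libraries as the one above, so the 2 are not independent, and values are set side by side only. The members summed to 12230 ± 1386 CPM in treated libraries, 1.41 times the untreated sum. As a share of unscaled counts they held 1.20 ± 0.10% in treated libraries, 1.29 times the untreated share. Treated and untreated values did not overlap for 66 members that were higher in treated libraries (77.6%, beside 19% of all genes). DESeq2 gave 67 passing members and limma 69. Adipocyte markers rose in 9 of 10 genes and macrophage markers fell in 10 of 10 in the same comparison. Fibroblast markers fell in 4 of 6 genes, to sums of 2081 to 2566 CPM, B cell markers in 2 of 5 and T cell markers in 1 of 6, endothelial markers rose in 3 of 6, and 1 brown or beige adipocyte marker rose and 1 fell. A count of 1 in a list of 5 or 6 genes lies near the 18.5% and 18.8% of all genes. T cell markers summed to only 3.1 to 10.8 CPM and B cell markers to 4.41 to 12.7 CPM in treated libraries. The part of these lists was not tested.

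The count of rising members depended on single libraries more than the first comparison did. It was 30 without untreated 2, 32 without untreated 3 and 35 without treated 4, and at most 71 when any 1 library was left out, while the median stayed between 0.40 and 0.53. With library size alone in place of TMM, 36 rose and 49 fell against WT. That scaling moved the median of all genes to -0.10 here and to 0.16 against WT. It also moved the higher share of all called genes to 35.5% and 69%, from the 49.6 and 49.9% of TMM. The members' median minus that of all genes was 0.445 with TMM and 0.442 with library size here, and -0.559 and -0.555 against WT. A change of scaling shifts all genes by nearly the same amount. This difference could therefore hardly change, and it does not tell which scaling is right.

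By complex, 30 of 38 genes of complex I rose (median 0.54), 3 of 4 of complex II (0.45), 8 of 9 of complex III (0.60), 8 of 16 of complex IV with 1 lower (0.45), and 12 of 17 of complex V (0.39). Cycs did not pass, at 0.12 (adjusted p = 0.382), and its treated range of 118 to 133 CPM touched the untreated one. In complex I, 23 of 29 accessory and 6 of 7 core subunits rose. Ndufv1 rose by 0.80 (SE 0.12, adjusted p = 0.000495) and Ndufb9 by 0.81 (SE 0.15, adjusted p = 0.00184), all 4 treated libraries above all untreated ones. Ndufs5 had the largest rise of the tested members, 1.19 (SE 0.22, adjusted p = 0.00157), with treated values of 69.4 to 103 CPM against 26.2 to 55.0 CPM. Ndufa4 rose by 0.67, and Ndufa4l2 reached 0.62 (adjusted p = 0.0516) and did not pass, though it did in 7 alternatives, DESeq2 and limma among them.

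In complex II, Sdha, Sdhd and Sdhc rose by 0.51, 0.48 and 0.37, while Sdhb stood at 0.42 (adjusted p = 0.0585). In complex III, Uqcr11 rose by 0.81 (SE 0.16, adjusted p = 0.00247), Uqcrfs1 by 0.65 and Cyc1 by 0.60, each without overlap. Treated 4 was highest for Uqcrfs1 at 177 CPM, beside 125 to 130.3 CPM in the other treated libraries. Uqcrq rose by 0.76 (SE 0.25, adjusted p = 0.0342), a call lost in 6 of the fits without 1 library. In complex IV, Cox8a rose by 0.83 (SE 0.18, adjusted p = 0.00356) and Cox6c by 0.48, both without overlap. Cox7a2 rose by 0.54, with treated 4 at 147 CPM and the other 3 at 91.2 to 98.2 CPM, and without treated 4 the call was lost. Cox6b2, at 1.14 to 2.33 CPM in treated libraries, rose by 1.11, and this call was lost without WT 4, untreated 1, 2 or 3, or treated 1 or 4. Cox7a1 did not pass at 0.26 (adjusted p = 0.459). In complex V, Atp5g3 rose by 0.65 (SE 0.17, adjusted p = 0.0101), Atp5k by 0.76 and Atp5b by 0.53. Leaving out untreated 2 or 3 ended the Atp5k call, and leaving out untreated 4 ended that of Atp5b.

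**Figure D3:**
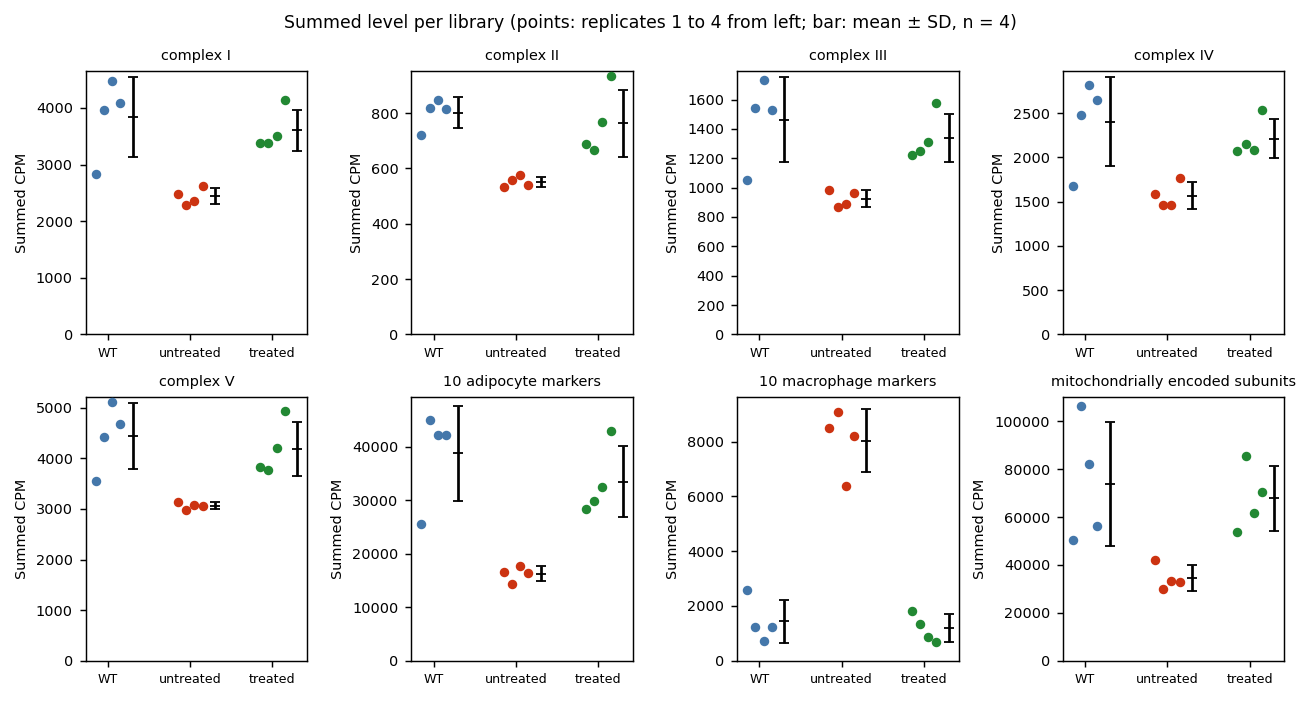
Summed CPM (vertical axes, from 0) of the members of complexes I to V and of 10 adipocyte markers, 10 macrophage markers and 13 mitochondrially encoded subunits in each library by group (horizontal axes). Points are replicates 1 to 4 from the left, and bars show the mean and SD of 4 libraries. For complexes I, II, III and V the untreated points lie below all WT and treated points, and for complex IV WT 1 (1677 CPM) lies within the untreated range.

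The complexes kept their order of size in the 3 groups. Complex I summed to 3844 ± 703 CPM in WT, 2443 ± 147 in untreated and 3605 ± 360 in treated libraries. Complex II summed to 801 ± 55.5, 552 ± 18.9 and 763 ± 121 CPM, complex III to 1463 ± 289, 925 ± 58.9 and 1341 ± 164 CPM, complex IV to 2402 ± 503, 1569 ± 148 and 2212 ± 221 CPM, and complex V to 4438 ± 657, 3066 ± 65.1 and 4185 ± 538 CPM. Ratios of the untreated to the WT mean lay between 0.633 for complex III and 0.691 for complex V. WT 1 had the lowest WT sum for each complex, and in complex IV its 1677 CPM lay within the untreated range of 1459 to 1771 CPM.

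In treated Bbs2-/- against WT libraries none of 85 tested members passed, and DESeq2 and limma also gave 0. Only 0.257% of all genes passed, so this count alone sets the members no further apart from other genes. Of 5 tested brown or beige adipocyte markers, 1 passed, and it was lower in treated libraries. At an unadjusted p below 0.05 there were 4 members, Ndufs5, Ndufa12, Cycs and Cox7a1, where 10.6% of all genes had one. The median log2 fold change was -0.09 beside -0.02 over all genes, and 77 of 85 were below 0 (90.6%, beside 53.3% of all genes). That median was -0.20 without WT 1, -0.02 without WT 3 and 0.06 without WT 2 and WT 3, so its sign depends on which WT libraries enter. In that last fit 65 of the 85 members were above 0. For 68 of the 85 members the 95% interval lay within a 1.5-fold change in either direction, and the median half-width of the intervals, leaving out Cox6a2, was 0.318 log2.

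No member had all treated values below all WT values, beside 2.21% of all genes, and Ndufs5 was the only one with all of them above, beside 2.68%: 69.4 to 103 CPM against 50.9 to 58.5 CPM. Its difference was 0.57 (adjusted p = 0.377) (95% interval 0.097 to 1.051), which did not pass. Cox7a1 had the lowest fitted difference, -0.61 (adjusted p = 0.421), with 3.25 to 4.09 CPM in treated and 3.43 to 7.17 CPM in WT libraries. Ndufa12, an accessory subunit of complex I, stood at -0.39 (adjusted p = 0.436), and Cycs at -0.25 (adjusted p = 0.429). The interval of Cox6a2 was wide, from -2.138 to 1.355, as its counts were few in both groups.

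**Figure D4:**
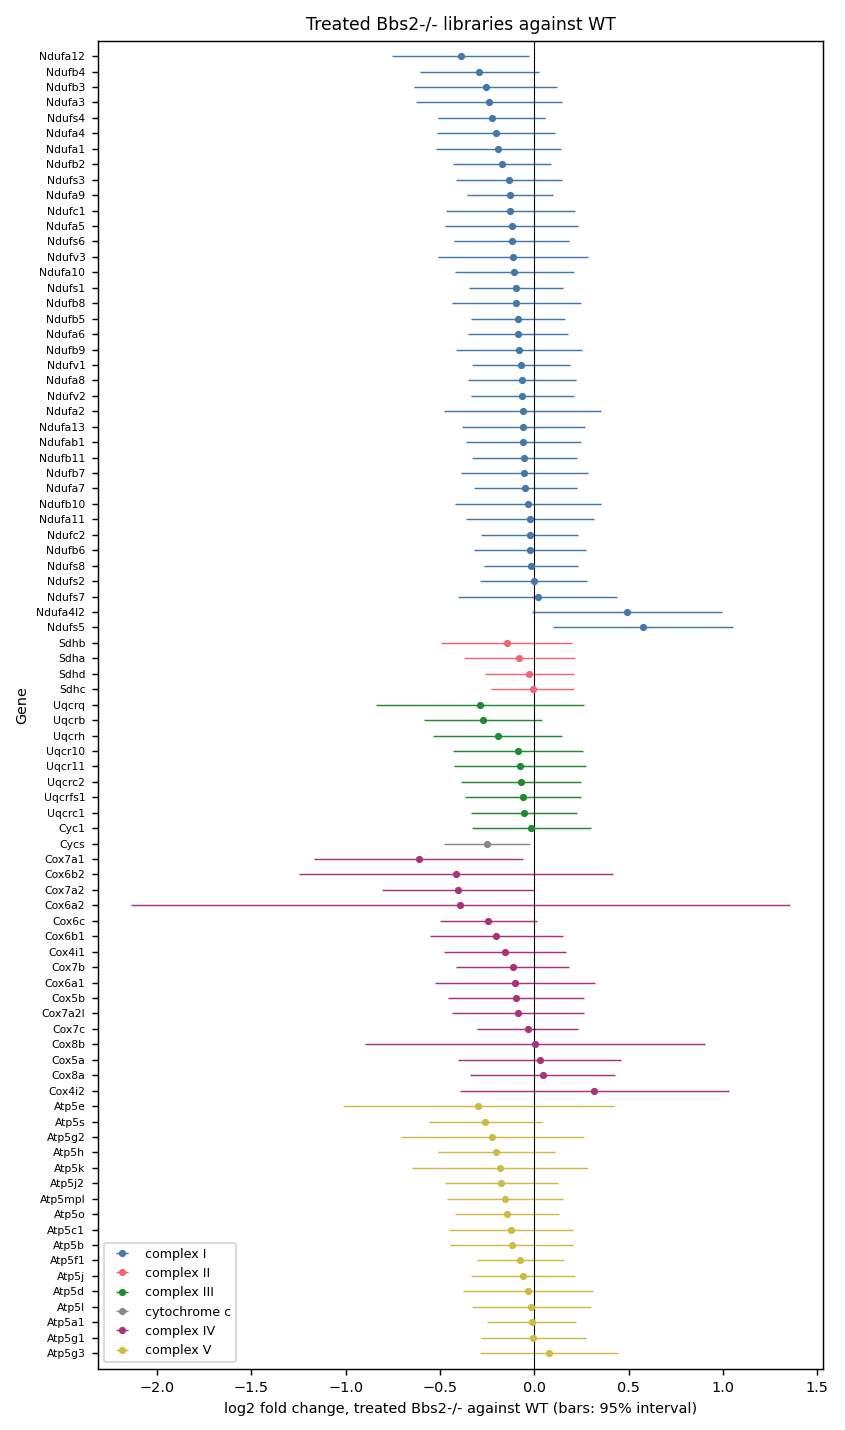
Fitted log2 fold change of treated Bbs2-/- against WT libraries (horizontal axis) for the 85 tested members (vertical axis), with 95% intervals as bars and colours for the complexes. Nearly all points lie within 0.5 of 0 and most lie slightly below it, and no member passed the adjusted threshold.

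The isoform pairs were compared as log2 ratios within each library, which do not depend on the scaling of the library. With 8 pairs and 3 comparisons there were 24 exact two-sided permutation tests over libraries, whose smallest possible p is 0.0286, and none passed after Benjamini-Hochberg adjustment (lowest adjusted p = 0.114). With that floor, an adjusted p below 0.05 needed many of the 24 tests at the smallest p at once. The lack of a passing test therefore does not show that the ratios were alike. The ratio of Ndufa4l2 to Ndufa4 was -4.51 ± 0.19 (SD, n = 4) in WT, -3.76 ± 0.33 in untreated and -3.81 ± 0.36 in treated libraries. Both Bbs2-/- groups lay above all WT libraries, by 0.76 and 0.70 (exact p = 0.0286 each), and differed from each other by -0.06 (exact p = 0.8). The ratio of Atp5g1 to Atp5g3 was -2.64 ± 0.28, -2.02 ± 0.11 and -2.75 ± 0.20 in the same order. Its untreated values lay above all others, by 0.62 against WT and by 0.73 against treated libraries (exact p = 0.0286 each). The ratio of Cox6a2 to Cox6a1 was higher by 3.53 in untreated than in WT libraries on the log2 CPM scale and by 2.30 on the log2 FPKM scale, with the limit on Cox6a2 counts given above. The ratios of Cox7a1 to Cox7a2, Cox4i2 to Cox4i1, Cox8b to Cox8a, Cox6b2 to Cox6b1 and Atp5g1 to Atp5g2 had exact p from 0.0571 upward.

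**Figure D5:**
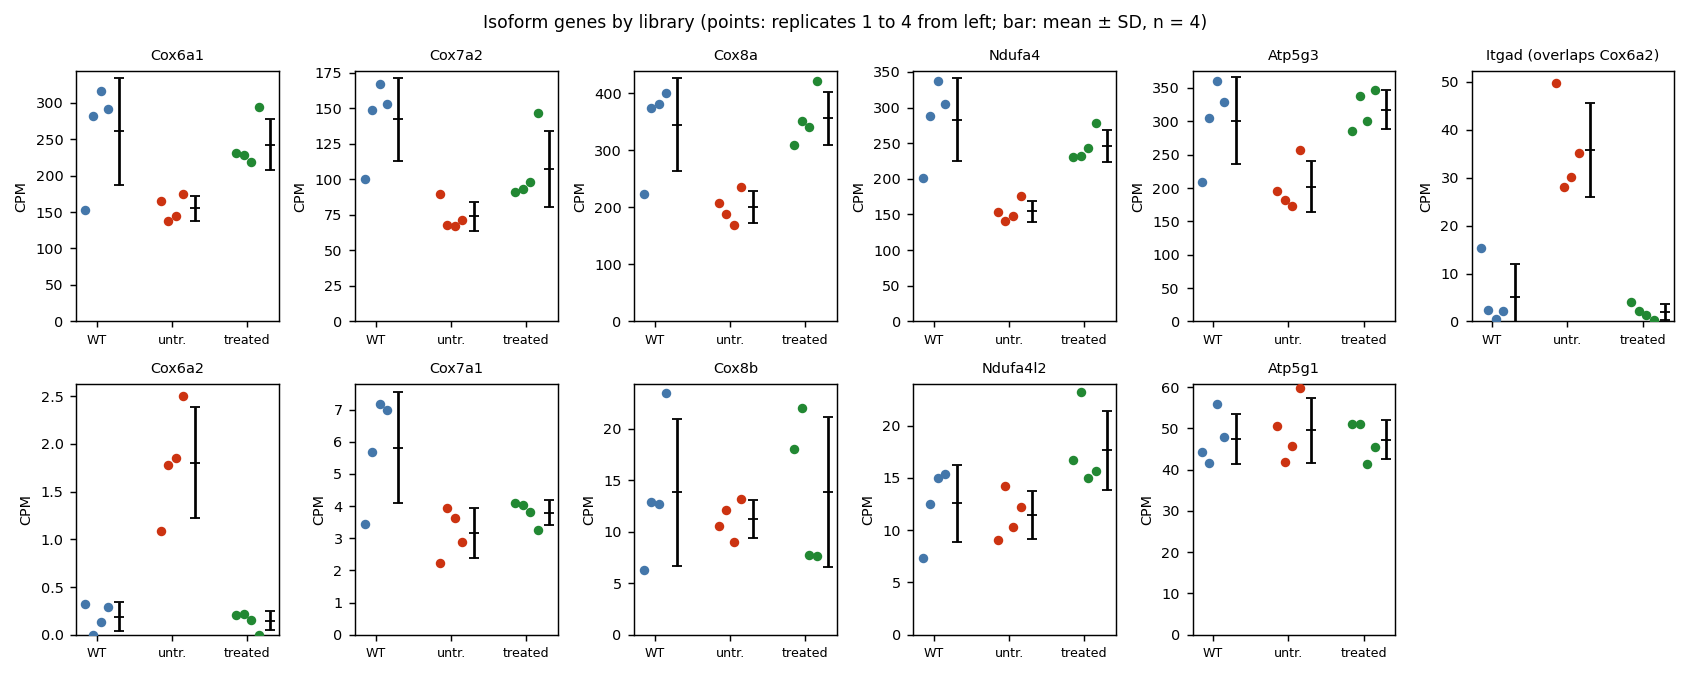
CPM (vertical axes, linear and from 0) of isoform genes and of Itgad, the gene that overlaps Cox6a2, in each library by group (horizontal axes). Points are replicates 1 to 4 from the left, and bars show the mean and SD of 4 libraries. Cox6a2 and Itgad are high in the untreated libraries, Atp5g1 is at a like level in all groups, and Cox6a1, Cox7a2, Cox8a, Ndufa4 and Atp5g3 are lower in each untreated library than in WT 2, 3 and 4.

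The 13 subunits encoded in mitochondrial DNA fell in 10 of 13 genes in untreated libraries against WT (median -1.07), rose in 8 of 13 in treated against untreated (median 0.89), and none passed in treated against WT. They summed to 73760 ± 25780 CPM in WT, 34560 ± 5266 in untreated and 67750 ± 13590 in treated libraries. The nuclear-encoded members per unit of this sum stood at 0.189 ± 0.0503, 0.254 ± 0.0314 and 0.185 ± 0.0357. In WT libraries mt-Co1 and mt-Cytb had means of 24800 and 16130 CPM, but mt-Nd3, mt-Co3 and mt-Nd4l only 0.76, 2.47 and 3.73 CPM. The sum and the ratio therefore rest mostly on the genes with many counts, and calls of the others rest on few. The sources used here do not say how reads were assigned to these genes, so few counts need not mean little RNA. In treated against untreated libraries mt-Co3 had a fitted difference of -0.29, which did not pass. mt-Cytb, mt-Nd4 and mt-Nd5 had the smallest p against WT, with log2 differences of -1.38, -1.26 and -1.24.

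Genes that assemble the complexes are given by their counts. In untreated against WT libraries, 10 of 16 complex I assembly genes, 2 of 4 of complex II, 2 of 7 of complex III, 8 of 22 of complex IV and 5 of 5 of complex V fell, where 19.7% of all genes did. Only Hccs, which attaches heme to cytochromes c and c1, rose among them (0.26, edgeR adjusted p = 0.0452), and it did not pass by limma on log2 FPKM (adjusted p = 0.152). Tmem126b and Ecsit, of complex I assembly, fell by 0.53 and 0.73, Surf1, of complex IV assembly, fell by 0.53, and Atpaf2, a chaperone of the F1 head, fell by 0.97 on the log2 scale. In treated against untreated libraries 7 of 16, 1 of 4, 2 of 7, 3 of 22 and 5 of 5 rose, where 18.5% of all genes did, so the share of the complex IV list lay below that of all genes. Coa4 of complex IV assembly fell by 0.52. Of 13 genes for ubiquinone synthesis, 9 fell in untreated libraries, led by the kinase-like Coq8a at -1.04, and 6 rose in treated against untreated. Of 22 carriers and structural genes of mitochondria, 12 fell and 8 rose in these comparisons, among them Mfn2, a fusion protein of the outer membrane (-0.82 and 0.64), and Slc25a4, an ADP/ATP carrier (-0.70 and 0.64). None of these genes passed in treated against WT libraries.

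Of 18 tested regulators of respiratory chain genes, 3 fell and 2 rose in untreated against WT libraries, shares that lie below the 19.7% and 19.6% of all genes, so the genes below are given singly. Nrip1, a corepressor of oxidative genes in fat, fell by 1.57, Tfb2m, a mitochondrial transcription factor, fell by 0.44, and Ppargc1a, the coactivator PGC-1alpha, fell by 1.23 on the log2 scale from 3.49 to 1.48 mean CPM. The gene of this coactivator is also in the list of brown or beige adipocyte markers counted above. Pprc1, a relative of that coactivator, rose by 0.86 and Nrf1, the factor that binds the NRF1 motif above, rose by 0.27 (edgeR adjusted p = 0.0297, and 0.122 by limma on log2 FPKM). In treated against untreated libraries Nrip1, Ppargc1a, Tfb2m and Pparg rose by 1.29, 1.62, 0.42 and 0.94, and Pprc1 fell by 0.49. Gabpa, Yy1, Esrra and Tfam did not pass in any of the 3 comparisons. Nrf1, Pparg and Hccs were named after their values were seen.

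Reads shared between genes touch some members. Counts were fractional in at least 6 libraries for 17 members, and 21 members overlap another gene with more than 20 mean counts on the opposite strand. Leaving both kinds aside, 43 of 52 tested members fell in untreated libraries (median -0.59) and 37 of 52 rose in treated against untreated (median 0.52), beside 28 and 24 of the other 33. Among genes of the same name prefixes not annotated as protein coding and so left out, Ndufb1-ps had 72.5, 53.4 and 68.5 mean CPM in WT, untreated and treated libraries, and Ndufb4c, a copy of Ndufb4, had 70.0, 45.4 and 64.9.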

How the data were processed

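Adipose tissue RNA of 12 libraries, 4 in each of 3 groups, was extracted with TRIzol and a column and sequenced after preparation with an Illumina TruSeq Stranded kit, as the labels' protocols state. The deposited tables hold estimated counts per gene (92.96 to 94.17% of the values in a library were whole within 1e-06) and log2 FPKM values made by the authors. The submitters' processing notes name mm10 as the build, with aligner, counter, strand setting and annotation not given in the sources used here. Counts were rounded to whole numbers, filtered with filterByExpr and scaled by TMM, and all 12 libraries entered 1 fit of edgeR 4.0.16 (R 4.3.3, quasi-likelihood, robust), with Benjamini-Hochberg adjustment over 15968 genes and a threshold of 0.05. Total counts ran from 16317865 to 20224200 per library. Levels in the text are CPM, and isoform ratios are differences of log2 CPM with a prior count of 2. The scripts were tested on simulated data.

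Alternatives were DESeq2 1.42.0, limma 3.58.1 on log2 FPKM, other scalings and filters, a replicate block and left-out libraries. The members and all gene lists were chosen with earlier results of these data known. Named members are, per complex, the 4 with the smallest p in untreated against WT and the 3 with the smallest p in treated against untreated, those passing against most of their complex, and all isoform pairs, and up to 3 genes with the smallest p per pathway list. Ndufv3, Ndufs5, Ndufs7, Ndufs8, Ndufa12, Uqcrq, Cox5a, Cox7a2l and Atp5e, and for treated against untreated also Sdhb, were named after their values were seen.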

Additional observations from a re-analysis of the deposited data

Results flagged for a closer look

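In 9 of 141 groups of 4 values checked, 1 library lay so far from the other 3 that its gap to them, divided by the range of the group, exceeded Dixon's 95% critical value, and chance gives about 1 such group in 20. In the treated group the library apart was treated 4 each time. It had 176.9 CPM of Uqcrfs1 (124.9 to 130.3 CPM in the other 3), 147 CPM of Cox7a2 (91.17 to 98.22), 293.5 CPM of Cox6a1 (218.3 to 230.2) and 86.39 CPM of Ndufs7 (58.64 to 59.3). Its complex IV genes summed to 2539 CPM, beside 2074 to 2152 CPM. In the untreated group, untreated 4 had 99.52 CPM of Cox5a (56.2 to 61.39 in the others) and 81.72 CPM of Atp5e (37.35 to 39.38), and untreated 2 had 88.43 CPM of Ndufb9 (96.48 to 98.1). In the WT group, WT 1 had 224 CPM of Cox8a, beside 375.2 to 400.7 CPM.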

How the results depend on the processing

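The count of members that fell in untreated against WT libraries stayed within 1.5 times of 71 in all alternatives but 1: it was 20 without WT libraries 2 and 3. The count that rose in treated against untreated libraries was 36 with library size alone in place of TMM. When 1 library was left out it ran from 30 to 71, with the lowest values without untreated 2 (30), untreated 3 (32) and treated 4 (35), and the count that fell against WT ran from 52 to 75. Medians ran from -0.679 to -0.504, from 0.402 to 0.526 and from -0.203 to -0.023 in the 3 comparisons. In treated against WT libraries no alternative called a member. Without the 4 libraries with Foxj1 counts, 74 members fell and 64 rose. Same-number correlations were above 0.1 in 4 of 12 pairs (from -0.149 to 0.308, beside -0.302 to 0.344 for other pairs), so the numbers were not taken to pair the libraries. Between untreated and treated libraries 3 of 4 were above 0.1 (0.0999 to 0.308), and 3 of 4 libraries on each side were closest to the one with their number, a hint from the data and not the design. With a replicate block 70 members fell, 57 rose and 0 passed against WT. In treated against untreated libraries Ndufa1, Ndufa12, Ndufb4, Uqcrq, Cox7a2, Cox7c and Atp5f1 then no longer passed (edgeR adjusted p from 0.0525 to 0.0691), while Ndufa3, Ndufa4l2 and Cox4i2 did (0.0308 to 0.0442). In untreated against WT libraries Ndufa8 and Ndufa13 no longer passed (0.0502 and 0.0559) and Ndufs7 did (0.0368).

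Among the 85 tested members, no sign turned under any alternative for a member that had passed in that comparison. In treated against WT libraries, where 8 members were above 0, signs turned for 59 members without WT libraries 2 and 3, for 30 without WT 3 and for 21 with library size alone. The values below are those of the members named in the text and of the isoform ratios, and the cause was not tested. With library size alone, untreated against WT gave Ndufa4l2 0.065, Ndufs8 0.001 and Cox7a2l 0.082, treated against untreated gave Cycs -0.003 and Cox7a2l -0.116, and treated against WT gave Atp5g1 0.049. With limma on log2 FPKM, Atp5g1 was at -0.004 in untreated against WT and 0.003 in treated against untreated, and Cox8b was at -0.027 in treated against WT. The ratio of Cox6a2 to Cox6a1 was 0.009 there on the log2 FPKM scale. Without WT libraries 2 and 3, untreated against WT gave Cox4i2 0.051 and Ndufa4l2 0.026, and treated against WT gave Cox4i1 0.001, Cox6a1 0.153, Cox6b1 0.049, Cox8b -0.069 and Atp5g1 0.057. Atp5g1 against WT in treated libraries was also 0.019 with no filter and 0.002 with only the groups compared. Without the libraries with Foxj1 counts, Atp5e was at -0.046 in treated against untreated, and Cox4i2 at -0.033 and Cox6a2 at 0.638 in treated against WT.

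Leaving out 1 library turned signs within these ranges. For untreated against WT they were -0.542 to 0.085 for Cox8b, -0.207 to 0.018 for Cox7a2l, -0.011 to 0.165 for Atp5g1 and -0.055 to 0.346 for the ratio of Cox7a1 to Cox7a2. For treated against untreated they were -0.104 to 0.129 for Cox7a2l, -0.163 to 0.013 for Atp5g1, -0.016 to 0.502 for Cox8b, -0.035 to 0.489 for Atp5e and -0.22 to 0.098 for the ratio of Ndufa4l2 to Ndufa4. For treated against WT they were -0.769 to 0.01 for Cox6a2, -0.313 to 0.388 for Cox8b, -0.116 to 0.124 for Cox8a, -0.061 to 0.176 for Atp5g3, -0.346 to 0.033 for Atp5g2, -0.291 to 0.003 for Cox6a1 and -0.064 to 0.081 for Atp5g1. The ratios ran from -0.569 to 0.396 for Cox6a2 to Cox6a1, -0.25 to 0.086 for Cox7a1 to Cox7a2, -0.358 to 0.236 for Cox8b to Cox8a, -0.082 to 0.385 for Atp5g1 to Atp5g2 and -0.194 to 0.031 for Atp5g1 to Atp5g3. With 3 libraries against 4 the smallest exact p of a ratio is 0.0571.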
